A study of Mus musculus with 6 samples.

Results

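The genes described here are 33 transcripts of cells other than leukocytes: 15 of endothelium, 8 of the glomerular podocyte and 10 of fibroblasts and mural cells (pericytes, mesangial cells and smooth muscle). They were measured in cells of mice with glomerulonephritis, described for the kidney as enriched and sorted monocytes. All 33 have a row among the 23955 genes of the count table. They were picked from lists of cell type markers after their levels in these same libraries had been seen, one kidney library standing apart for many of them. For that reason their levels, folds and calls are given as a description and no test is drawn from them.

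The libraries came from wild-type mice of the strain labelled C5/Bl6, aged 8-10 weeks, in which nephrotoxic nephritis (NTN), a glomerulonephritis provoked by antiserum against the kidney's filtration barrier, had been induced. The 10 mice of the series were killed on day 13. Monocytes of the kidney were enriched with a monocyte isolation kit and sorted, and 3 libraries are labelled as double positive cells of kidney (replicates 7, 8 and 22). Another 3 libraries are labelled as double cells of spleen and bone marrow together (replicates 2, 24 and 26). Every group had NTN, so there is no library of a healthy mouse. The labels thus give 2 cell sources, spleen and marrow not being apart from each other. They name neither the markers behind "double" nor the mice in each library, and describe enrichment and sorting for the kidney cells only. Where replicates are not known to be separate animals or pools, spread between them may be technical.

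Endothelial cells line the blood vessels. In the glomerulus, the kidney's filter, they form a fenestrated sheet that shares a basement membrane with podocytes, the epithelial cells whose interlocking foot processes carry the slit diaphragm. Mesangial cells hold the capillary loops together, and pericytes and smooth muscle cells wrap vessels elsewhere. The podocyte makes vascular endothelial growth factor (VEGF) for the receptors Kdr and Flt1 of the endothelium, and angiopoietins made by mural cells bind the receptor Tek. Circulating monocytes reach inflamed glomeruli by adhering to that endothelium.

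Total counts per library lay between 3492391 (kidney replicate 22) and 9727489 (spleen and marrow replicate 26), and kidney replicate 8 held 7824387. Levels below are CPM, a gene's counts relative to the size of its library, with sizes adjusted by the trimmed mean of M values (TMM). CPM compare a gene between libraries and not genes of different length with each other. A gene without a count in a library could still be present at the CPM of 3 counts, which was 0.322 in the deepest library and 0.881 in kidney replicate 22. Intervals of ratios and of shares cover counting error only. Monocyte genes summed to 37495, 36055 and 34906 CPM in kidney replicates 7, 8 and 22, but the gene Lyz2 (lysozyme) alone gave 30678 CPM of it in replicate 8. None of the 12 genes on that list was 4-fold above or below in replicate 8. Some were lower there, Itgam at 133 CPM against 321 and 195 CPM in replicates 7 and 22, and Csf1r at 277 CPM against 457 and 371 CPM. Others were not, and 3 of the 12 were highest of the kidney libraries in replicate 8. Among these 3, Cd68 lay at 1108 CPM against 873 and 1078 CPM, and Fcgr1 at 405 CPM against 343 and 351 CPM. In bulk RNA, fewer cells of a type and less RNA per cell cannot be told apart.

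The 33 genes together held 0.325% of all counts in kidney replicate 8 (95% Wilson interval 0.321% to 0.329%). In kidney replicate 7 they held 0.0332% (0.0320% to 0.0345%) and in kidney replicate 22 0.0327% (0.0309% to 0.0347%). Replicate 8 was thus about an order of magnitude above the other kidney libraries, which were close to each other. It was the highest of all 6 libraries for 26 of the 33 genes. For 15 of them it held over 90% of the CPM summed over the 6 libraries. The 7 exceptions were Nphs1, Magi2, Col1a1 and Col1a2, highest in kidney replicate 22, and Ptpro, Col3a1 and Dcn, highest in kidney replicate 7. How often all genes show either pattern was not counted, so these numbers describe the members only.

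**Figure D1:**
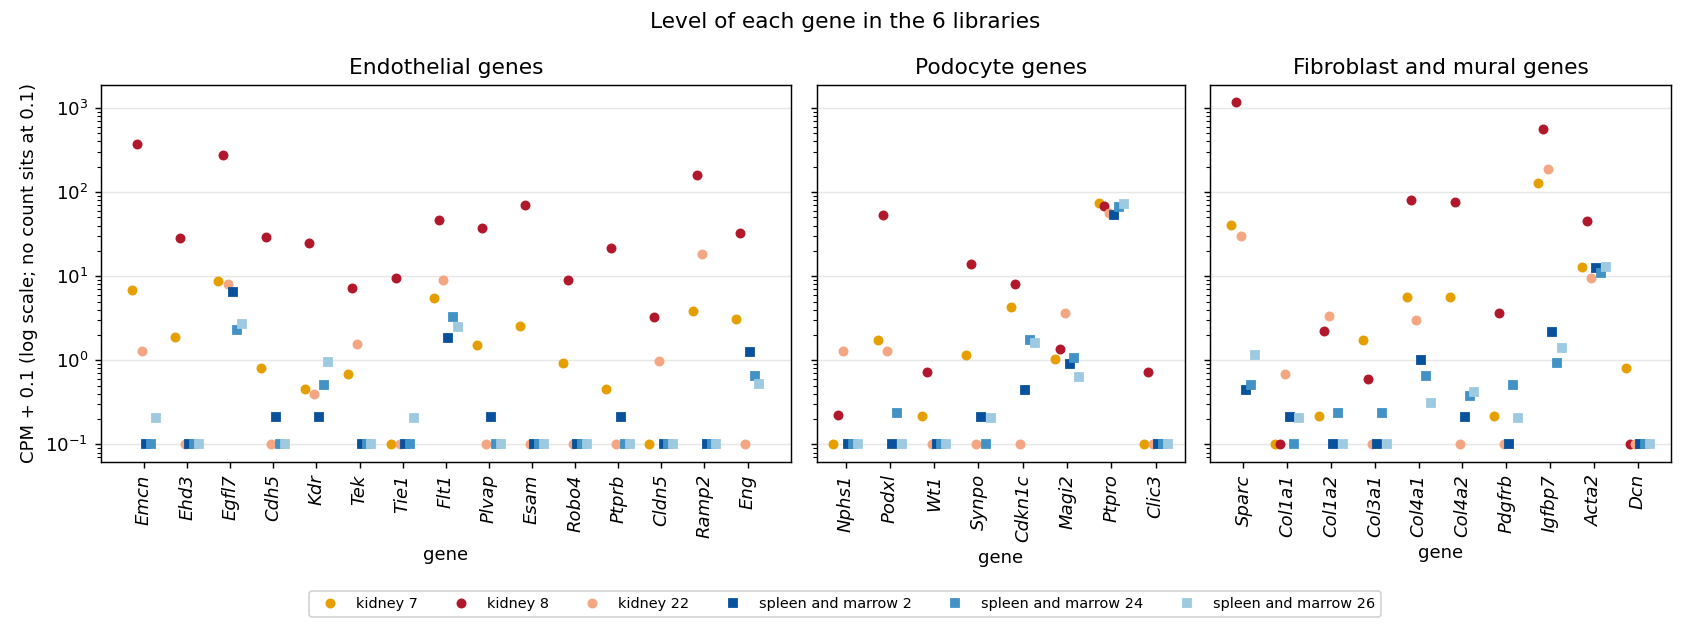
Level of each of the 33 genes (CPM + 0.1, log scale) in the 3 kidney libraries (circles) and the 3 spleen and marrow libraries (squares), 1 symbol per library. Kidney replicate 8 is the highest circle for all 15 endothelial genes, Ptpro lies at one level in all 6 libraries, and Igfbp7 is high in all 3 kidney libraries.

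Only part of the label held in the data. The endothelial genes were present together in kidney replicate 8. In the same library Pecam1 and Cd34, general surface proteins of endothelium outside the 33, had 450 and 420 counts. Vwf, another endothelial gene outside the 33, did not stand apart there, with 23, 31 and 0 counts in kidney replicates 7, 8 and 22. The genes that define podocytes were nearly absent. Nphs1 (nephrin) had 0, 1 and 4 counts in kidney replicates 7, 8 and 22, and the transcription factor Wt1 had 1, 5 and 0. The fibroblast genes Col1a1, Col1a2, Col3a1 and Dcn (the proteoglycan decorin) had at most 17 counts in any kidney library. Below, the podocyte and fibroblast groups are therefore lists of genes, not signs of those cells.

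The endothelial group begins with surface and junction proteins. Emcn, the sialomucin endomucin of capillaries and veins, stood at 371 CPM in kidney replicate 8, 6.75 CPM in replicate 7 and 1.17 CPM in replicate 22. In spleen and marrow its only count was 1, in replicate 26. From 2936 counts, its level in replicate 8 was 72.0-fold that of replicates 7 and 22 pooled (95% exact interval 55.9 to 94.4). All 3 kidney libraries lay above all 3 spleen and marrow libraries, although replicate 22 did so on 4 counts.

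Cdh5, the VE-cadherin of endothelial junctions, had 6, 228 and 0 counts in kidney replicates 7, 8 and 22, and 1 count in spleen and marrow in all. The ratio of replicate 8 to the other kidney libraries was 56.9 (25.7 to 157). Esam, a junctional adhesion molecule of endothelium and platelets, had 21, 558 and 0 counts in the kidney libraries and none in spleen and marrow, a ratio of 39.8 (25.8 to 64.8). Cldn5, the claudin of tight endothelial junctions, was the sparsest of the junction genes, with 0, 25 and 3 counts. Adherens and tight junction genes were thus high in the same single library, and replicate 22 had counts only for Cldn5.

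Plvap forms the diaphragms of fenestrae and is low in mature glomerular capillaries, whereas Ehd3, a membrane-trafficking ATPase, marks glomerular endothelium. Plvap had 12, 295 and 0 counts in kidney replicates 7, 8 and 22, and Ehd3 had 15, 224 and 0. Replicate 8 was 36.8-fold (20.7 to 72.0) above the pooled others for Plvap and 22.4-fold (13.3 to 40.6) for Ehd3. On the length-scaled FPKM (fragment counts scaled by transcript length and depth) deposited by the authors, Plvap was 2.66 times Ehd3 in replicate 8 and 1.91 times in replicate 7. Genes linked to both kinds of capillary were therefore present in replicates 7 and 8. Robo4, a guidance receptor of endothelium, had 7, 70 and 0 counts, a ratio with an interval of 6.89 to 38.6.

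The receptors of VEGF differed in how far they were confined to replicate 8. Kdr, the main signalling receptor, had 3, 193 and 1 counts in kidney replicates 7, 8 and 22, against 1, 3 and 8 in spleen and marrow replicates 2, 24 and 26. Apart from replicate 8, the level of Kdr in kidney was 0.713-fold that of spleen and marrow (0.168 to 2.35). Flt1, which binds VEGF tightly and limits its action on Kdr, was present in every library. It stood at 5.33, 46.5 and 8.81 CPM in the kidney libraries and at 1.72, 3.15 and 2.36 CPM in spleen and marrow, with no overlap. Without replicate 8, Flt1 was still 2.68-fold higher in kidney by pooled counts (1.88 to 3.82). On FPKM, Flt1 was 1.52 times Kdr in replicate 8, but 15.2 times in replicate 7 and 31.1 times in replicate 22, the last from a single Kdr count.

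Tek, the angiopoietin receptor Tie2, had 5, 56 and 5 counts in kidney replicates 7, 8 and 22 and none in spleen and marrow. Tie1, its partner receptor, had 0, 75 and 0 counts in kidney and 1 in spleen and marrow. The ratio of replicate 8 to the other kidney libraries was 8.38 (4.24 to 18.4) for Tek, and Tie1 was at least 37.4-fold higher there. Ptprb, the phosphatase VE-PTP that restrains Tek, followed with 3, 172 and 0 counts and a ratio of 85.8 (28.9 to 420). Of these 3 genes, Tek alone had counts in each kidney library.

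Eng (endoglin), a co-receptor for TGF-beta family ligands, lay at 2.96, 32.1 and 0 CPM in kidney replicates 7, 8 and 22 and at 1.15, 0.547 and 0.429 CPM in spleen and marrow. The groups overlapped because replicate 22 had no count. Ramp2 makes the calcitonin-like receptor Calcrl respond to adrenomedullin and is needed for vessel integrity. It stood at 3.79, 159 and 18.5 CPM in the kidney libraries and had no count in spleen and marrow. Over all 3 kidney libraries Ramp2 was at least 579-fold higher than in spleen and marrow, and at least 67.8-fold higher without replicate 8, against 3 counts for that group.

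Egfl7, a secreted protein that endothelium lays into its matrix, lay at 8.77, 274 and 7.93 CPM in kidney replicates 7, 8 and 22, and at 6.43, 2.19 and 2.57 CPM in spleen and marrow. The groups did not overlap, but replicate 22 lay close to spleen and marrow replicate 2. Replicate 8 was 32.1-fold above the other kidney libraries (26.3 to 39.6), which were in turn 2.25-fold above spleen and marrow (1.69 to 3.01).

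Since most of the endothelial genes were high in the same library, the sequence just upstream of their starts is shown for genes that differed in a motif of the ETS transcription factors, a family with known roles in endothelial genes. The sequences are those of RefSeq on GRCm38.p6, a later build than that of the counts, and each is the 120 bases before the first start listed for the gene, 5′ to 3′. Capitals mark AGGAA or its reverse complement TTCCT.
Emcn, chr3:137340958-137341077 (plus strand): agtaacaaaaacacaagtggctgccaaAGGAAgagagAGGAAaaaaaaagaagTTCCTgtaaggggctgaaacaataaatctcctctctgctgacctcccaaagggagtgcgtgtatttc
Egfl7, chr2:26580963-26581082 (plus strand): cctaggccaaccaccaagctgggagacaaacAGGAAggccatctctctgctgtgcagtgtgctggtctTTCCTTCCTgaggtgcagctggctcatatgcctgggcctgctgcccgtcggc
Robo4, chr9:37401852-37401971 (plus strand): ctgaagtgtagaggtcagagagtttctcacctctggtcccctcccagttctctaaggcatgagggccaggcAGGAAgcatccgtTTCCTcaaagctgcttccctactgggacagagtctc
Flt1, chr5:147726012-147726131 (minus strand): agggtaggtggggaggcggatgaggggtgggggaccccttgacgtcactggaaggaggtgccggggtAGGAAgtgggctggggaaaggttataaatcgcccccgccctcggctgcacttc
Kdr, chr5:75978456-75978575 (minus strand): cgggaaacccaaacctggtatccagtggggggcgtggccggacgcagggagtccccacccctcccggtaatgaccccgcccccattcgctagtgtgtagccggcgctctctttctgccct
Igfbp7, chr5:77408046-77408165 (minus strand): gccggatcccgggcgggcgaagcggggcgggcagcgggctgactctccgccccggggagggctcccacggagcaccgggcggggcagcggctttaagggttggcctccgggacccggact
In these windows Emcn and Egfl7 had 3 matches each, of which a pair in Egfl7 overlaps, Robo4 had 2, Flt1 had 1, and Kdr and Igfbp7 had none. Over 250 bases upstream and both strands, AGGAA was found in 8 of the 10 endothelial genes with an entry, in 3 of 4 podocyte genes and in 2 of 7 fibroblast and mural genes. It was also in 60.3% of all 32851 windows of that length, so a match is common. The longer CAGGAAG, which contains AGGAA, was in 3 of the 10 endothelial windows and in 10.8% of all windows. A motif of another endothelial factor family, AGATAA, was in 0 of the 10 and in 9.99% of all. Of the 33 genes, 21 had an entry. These matches describe letters and not binding.

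Ligands and partners of the endothelial receptors, none of them among the 33, ranged from nearly absent to present in every library. Nrp1, a co-receptor of Kdr that monocytes also carry, lay at 52.3, 89.0 and 46.7 CPM in kidney and at 46.4, 48.6 and 40.2 CPM in spleen and marrow, and Acvrl1, the partner of Eng, at 13.5, 26.4 and 13.5 CPM in kidney and at no more than 9.71 CPM in spleen and marrow. Neither passed the test between sources. Of the ligands, Vegfb was highest in kidney replicate 22, at 23.8 CPM against 6.40 and 4.30 CPM in replicates 7 and 8. Vegfa lay at 3.67, 8.85 and 3.82 CPM in kidney replicates 7, 8 and 22 and at 4.94, 3.56 and 3.43 CPM in spleen and marrow, and did not pass the test between sources (log2 fold change 0.47 ± 0.51, SE). The Flt1 ligand Pgf had 1, 49 and 0 counts in kidney and 5, 7 and 5 in spleen and marrow. Angpt2, the Tek ligand stored in endothelium, had 10, 75 and 0 counts in kidney and none in spleen and marrow, while Angpt1, the ligand of mural cells, was at most 1.47 CPM. Adm, the ligand of the Calcrl and Ramp2 receptor, had 21, 47 and 0 counts in kidney and none in spleen and marrow. Calcrl itself was present in all 6 libraries, at 7.47, 21.1 and 0.587 CPM in kidney and at no more than 3.56 CPM in spleen and marrow, and did not pass the test (1.57 ± 0.90).

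In the podocyte group Podxl and Synpo were far above the other kidney libraries in replicate 8. Podxl, the podocalyxin that charges the surface of podocytes and also of endothelium, had 14, 419 and 4 counts in kidney replicates 7, 8 and 22 and 1 count in spleen and marrow. Its ratio in replicate 8 was 34.8 (21.8 to 59.4), between those of Egfl7 and Plvap. Synpo, the actin-binding synaptopodin of foot processes, had 9, 110 and 0 counts, a ratio of 18.3 (9.29 to 41.1). The slit diaphragm gene Nphs1 was not raised with them.

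Of the rest of the group, Ptpro and Magi2 were found in all 6 libraries, Cdkn1c in 5, and Clic3 was nearly empty. Ptpro, a receptor phosphatase first named for the podocyte, a shorter form of which is known in leukocytes, stood at 74.3, 68.1 and 55.8 CPM in kidney and at 53.6, 67.0 and 72.6 CPM in spleen and marrow. These ranges overlapped almost wholly, and the log2 fold change between sources was 0.04 ± 0.19 (SE, n = 3 per group). Ptpro made up most of the podocyte sum in every library but kidney replicate 8, where Podxl added 52.9 CPM. That sum was 82.2, 146 and 61.7 CPM in the kidney libraries against 66.5 ± 10.3 CPM (SD, n = 3) in spleen and marrow. The scaffold Magi2 had 8, 10 and 12 counts in kidney and between 5 and 7 in spleen and marrow. Cdkn1c, an inhibitor of the cell cycle kept on in mature podocytes, stood at 4.15, 7.96 and 0 CPM in kidney and at no more than 1.64 CPM in spleen and marrow, so it was higher in kidney replicates 7 and 8 and missing from replicate 22. It was called higher only when replicate 22 was left out. The chloride channel-like protein Clic3 had counts in replicate 8 alone, 5 in all.

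In the third group, the genes of basement membrane and vessel wall followed replicate 8 and the fibrillar collagens did not. Sparc, a matrix protein that binds collagen, lay at 40.2, 1176 and 29.7 CPM in kidney replicates 7, 8 and 22, and at 0.345, 0.410 and 1.07 CPM in spleen and marrow. Every kidney library was thus far above every spleen and marrow library. Replicate 8 was 31.6-fold above the other kidney libraries (28.8 to 34.9), and these were 58.9-fold above spleen and marrow (35.8 to 104).

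Col4a1 and Col4a2 encode the collagen chains of basement membranes and lie head to head in the genome, with RefSeq starts 21 bases apart on opposite strands. Col4a1 had 47, 628 and 10 counts in kidney replicates 7, 8 and 22, and 8, 4 and 2 in spleen and marrow. Col4a2 had 47, 606 and 0 counts in kidney, and 1, 2 and 3 in spleen and marrow. On FPKM the chains were near parity in replicate 8, at a ratio of 1.09. Nid1, a basement membrane linker outside the 33, had 11, 116 and 0 counts, the same order. Another type IV collagen chain outside the 33, Col4a3, was lowest in replicate 8, with 24, 3 and 46 counts. Of 16 further basement membrane and collagen-processing genes with at least 10 counts in a kidney library, 7 were at least 4-fold higher in replicate 8 than in both replicates 7 and 22.

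Igfbp7, a secreted protein of vessel walls that binds insulin-like growth factors, was the member least tied to replicate 8 among those high in kidney. It stood at 128, 559 and 189 CPM in kidney and at 2.07, 0.821 and 1.29 CPM in spleen and marrow. Replicate 8 was only 3.85-fold above the other kidney libraries (3.64 to 4.07). Those 2 libraries were 102-fold above spleen and marrow (73.6 to 146). Acta2, the actin of smooth muscle, stood at 12.8, 44.7 and 9.40 CPM in kidney and from 10.8 to 12.9 CPM in spleen and marrow. Kidney replicates 7 and 22 pooled were thus level with spleen and marrow for Acta2, at 0.979-fold (0.796 to 1.20).

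Pdgfrb, the PDGF receptor of pericytes and mesangium, had 1, 28 and 0 counts in kidney and 0, 3 and 1 in spleen and marrow. Of sparse mural genes outside the 33, Rgs5 had 0, 26 and 0 counts in the kidney libraries, Notch3 had 1, 0 and 22, and Cspg4 had 3, 2 and 3. With more counts, Mgp (99, 869 and 26) and Tpm2 (104, 315 and 10) of the same further list were highest in replicate 8. Of 14 genes of that list with at least 10 counts in a kidney library, 6 were at least 4-fold higher in replicate 8 than in both others. Over all such genes the share was 2.75%. The ligand Pdgfb was present in all 3 kidney libraries, at 2.25, 5.43 and 5.87 CPM, with a single count in spleen and marrow, and rose in kidney in the test over all genes. Of the collagens of connective tissue, Col1a1 had 0, 0 and 2 counts in the kidney libraries, Col1a2 had 1, 17 and 11, and Col3a1 had 14, 4 and 0. Dcn had 6, 0 and 0. Col1a1 and Dcn thus had no count in the library where Col4a1 had 628.

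**Figure D2:**
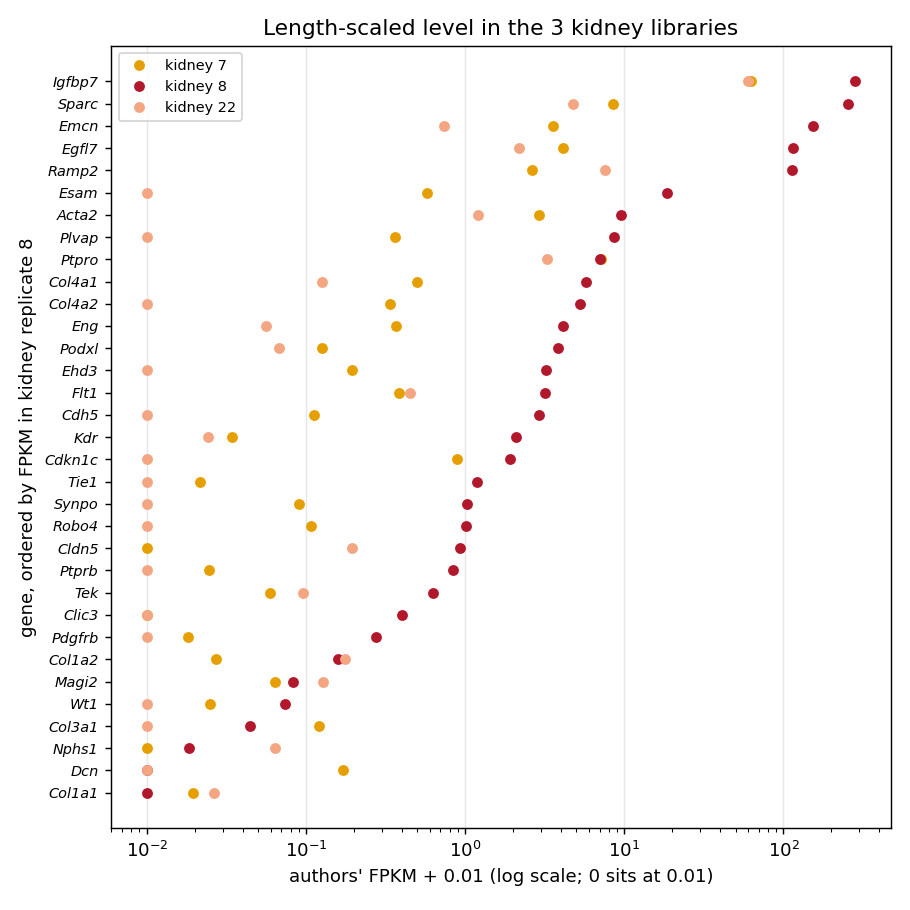
Length-scaled level of the 33 genes in the 3 kidney libraries (the authors' FPKM + 0.01, log scale), ordered by replicate 8. Igfbp7 (282), Sparc (253), Emcn (154), Egfl7 (114) and Ramp2 (113) lead in replicate 8, while Nphs1, Dcn and Col1a1 lie at the bottom.

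Compared per length, the members spanned a wide range in replicate 8. Igfbp7 led with an FPKM of 282, followed by Sparc at 253, Emcn at 154, Egfl7 at 114 and Ramp2 at 113. Esam came next at 18.7. The receptors were lower, with Eng at 4.12, Flt1 at 3.17, Kdr at 2.09, Tie1 at 1.18 and Tek at 0.617. The 5 leading genes are thus secreted or small surface proteins, and the receptor kinases all lay below an FPKM of 4. In replicate 7 Igfbp7 also led, at 63.0, with Sparc at 8.50 and Emcn at 3.53, and in replicate 22 the values were 59.7, 4.75 and 0.731. These FPKM carry no depth, and a value listed at 0 may be a failed estimate, since the abundant monocyte gene Lyz2 is listed at 0 in a library with 502608 counts of it.

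How far replicate 8 stood apart was set beside all other genes. With 1 library against 2 there is no test, so a gene was counted when its CPM in replicate 8 was at least 4-fold that of both replicates 7 and 22, each raised to the CPM of 3 counts. The filter for the test between sources asks for counts in 3 libraries. It kept 9 of the 33 genes (Egfl7, Flt1, Ramp2, Cdkn1c, Ptpro, Sparc, Col4a1, Igfbp7 and Acta2) and left out 24, among them genes with counts almost only in replicate 8. Of those 9, 5 were past 4-fold (Egfl7, Flt1, Ramp2, Sparc and Col4a1), beside 0.979% of the 10626 genes kept. Among genes with at least 10 counts in a kidney library, a filter chosen after seeing the data, 20 of 28 members were past 4-fold, beside 2.75% of 12272 genes. None of the 28 was 4-fold below both, beside 1.02% of all. The members were picked with this pattern in view, so their share is given without further reading.

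By group, 14 of 15 endothelial genes, 2 of 5 podocyte genes and 4 of 8 fibroblast and mural genes were past 4-fold. Cldn5 missed it with 3.16 CPM in replicate 8 and 0.881 in replicate 22, and Tek passed it with 7.08 CPM against 1.47. In the third group Igfbp7 and Acta2 missed it, Sparc, Col4a1, Col4a2 and Pdgfrb passed it, and Col1a2 and Col3a1 were not highest in replicate 8. The other 5 members, Nphs1, Wt1, Clic3, Col1a1 and Dcn, had fewer than 10 counts in each kidney library. Of all 337 genes past 4-fold, 20 were members and 24 came from a list of 35 further endothelial genes. Fabp4, a fatty acid carrier of capillaries, lay at 43.3, 1451 and 86.0 CPM in kidney replicates 7, 8 and 22. Gpihbp1, the capillary anchor of lipoprotein lipase, had 77, 4842 and 0 counts. Of the 35 genes, 30 were highest of the kidney libraries in replicate 8, but some were not. Cd93, of the same list, was highest in replicate 7, at 113, 76.8 and 53.4 CPM. Bmx, also of that list, was lowest in replicate 8, with 73, 38 and 106 counts.

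**Figure D3:**
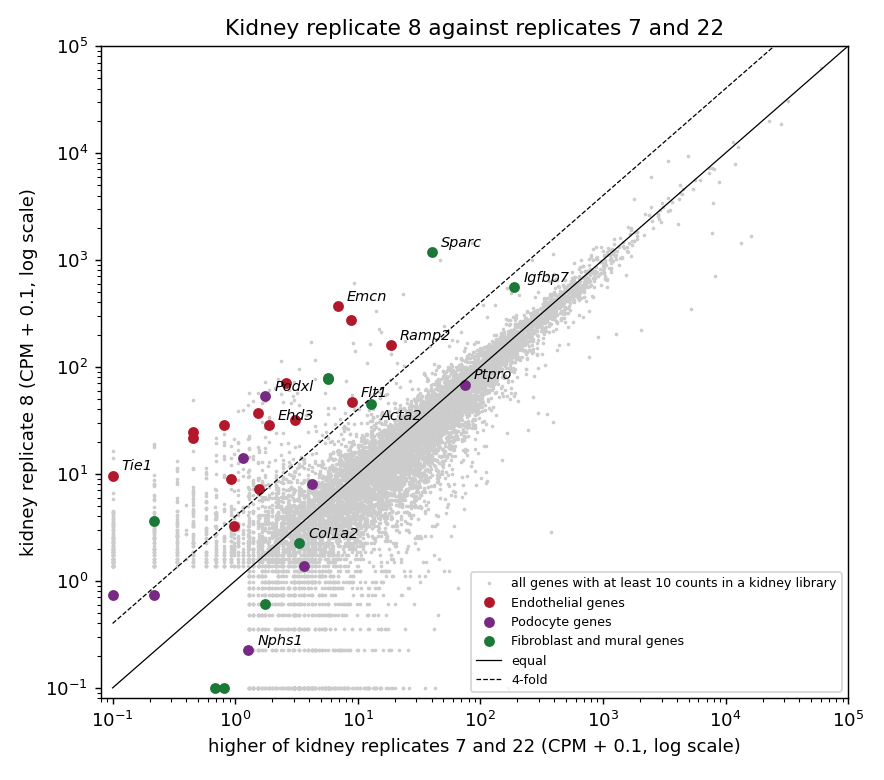
Level in kidney replicate 8 against the higher of kidney replicates 7 and 22 (CPM + 0.1, both axes log), for all genes with at least 10 counts in a kidney library (grey) and the 33 members (colours by group). Most endothelial genes lie above the dashed 4-fold line, Igfbp7 and Acta2 between it and equality, and Ptpro on the line of equality.

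Between cell sources, edgeR's quasi-likelihood test over all 10626 genes, with Benjamini-Hochberg adjustment at 0.05, called 832 genes higher in kidney (7.83%) and 627 lower (5.9%). Of the 9 members in that fit, 5 were among the higher (Col4a1, Flt1, Igfbp7, Ramp2 and Sparc) and 0 among the lower. Their log2 fold changes were 7.68 ± 0.73 (SE) for Igfbp7, 9.34 ± 1.87 for Sparc, 5.69 ± 1.39 for Col4a1 and 3.08 ± 0.83 for Flt1. For Ramp2 the fit gave 11.84 ± 2.58, the widest error of the 5. That fold was fitted against a group without counts, so the bound above describes it better. Of the others, Sparc and Col4a1, with the wider errors, were also the more spread among the kidney libraries. Egfl7 (4.70 ± 1.43), Cdkn1c (1.84 ± 1.13) and Acta2 (0.91 ± 0.56) did not pass. The median over the 9 was 4.70 and over all tested genes 0.05. The 9 were picked with their levels in view, and Ramp2 entered the fit on kidney counts alone, so the medians are given without further reading.

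Leaving out replicate 8 changed which members were called. Without it, 3 of 9 were called higher (Igfbp7, Ramp2 and Sparc), beside 8.52% of all genes tested then. Flt1 went from 3.08 to 1.54 and Col4a1 from 5.69 to 2.90 on the log2 scale, and neither passed. Igfbp7 went from 7.68 to 6.79 and kept its call. Sparc moved further, from 9.34 to 5.77, and was still called. Egfl7 came to 1.14, and Acta2 turned from 0.91 to -0.11, neither being called in either fit. Without kidney replicate 22, 14 of 16 members were called, beside 14.3% of all genes, and without the count filter 15 of 33, beside 5.51%. When spleen and marrow replicate 2, 24 or 26 was dropped, Igfbp7 was the 1 member called, of 19 that then passed the filter, beside 2.57%, 2.53% and 2.31% of all genes. Igfbp7 was thus called in each of these fits. With a library left out, the filter keeps genes with counts in fewer libraries, so members with almost no count outside kidney could enter. The members were also picked on their levels in these libraries, so these shares are given without further reading.

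The ranges of the sources did not overlap for 9 members, kidney being the higher each time. These were Egfl7, Flt1, Ramp2, Sparc, Col4a1 and Igfbp7, 6 of the 9 in the fit beside 19.2% of all genes there, and Emcn, Tek and Podxl outside it. In spleen and marrow the members were sparse, 10 having no count in any of the 3 libraries and 10 more having 1 to 3 counts in all.

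Further lists place the members beside other genes of the same cells and of other cells. Over all genes in the fit between sources, 7.83% were called higher in kidney and 5.9% lower, and the median log2 fold change was 0.05. The lists were chosen with earlier results of these data known, so their counts are a description. Of 35 more endothelial genes, 13 entered the fit, 3 were higher in kidney and none lower, with a median log2 fold change of 3.35. Of 26 more fibroblast and mural genes, 7 entered and 4 were higher, among them Cald1, an actin-binding protein of smooth muscle, at 12.4, 162 and 4.99 CPM in the kidney libraries. Of 17 further basement membrane and collagen-processing genes, 5 entered and 3 were higher, and of 23 vascular signalling genes 11 entered and 2 were higher. Endothelial adhesion molecules were measured with 11 genes, of which 5 entered and 2 were higher, F11r and Icam1. Icam1, the leukocyte ligand that monocytes also carry, stood at 70.3, 95.5 and 56.7 CPM in kidney and at 29.97, 24.6 and 26.7 CPM in spleen and marrow.

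**Figure D4:**
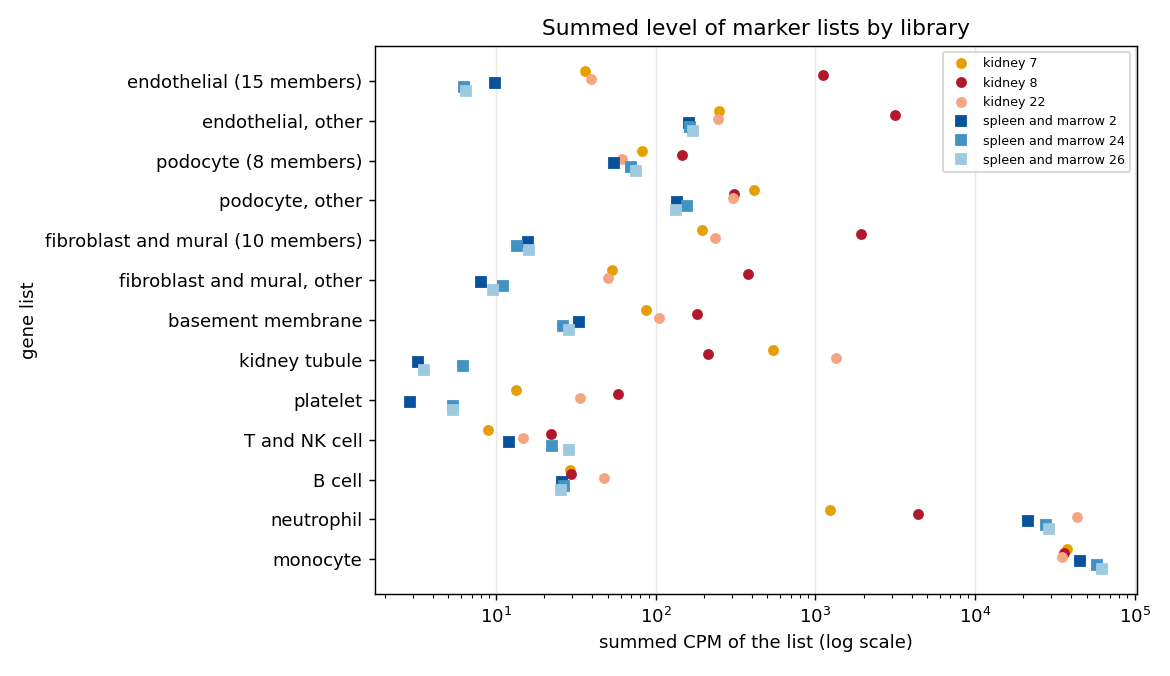
Summed CPM (log scale) of each gene list in the 6 libraries, 1 symbol per library, circles for kidney and squares for spleen and marrow. Kidney replicate 8 stands apart for the endothelial lists and the fibroblast and mural lists, kidney replicate 22 for the tubule and neutrophil lists, and the monocyte list, mostly Lyz2, lies in a narrow band.

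By summed level, replicate 8 was highest both for the endothelial members and for the other endothelial genes, and likewise for the fibroblast and mural genes. The 15 endothelial members summed to 36.1, 1123 and 39.1 CPM in kidney replicates 7, 8 and 22 and to 7.50 ± 1.96 CPM (SD, n = 3) in spleen and marrow. The 35 other endothelial genes summed to 248, 3138 and 245 CPM. The 10 fibroblast and mural members summed to 194, 1941 and 235 CPM, against 15.1 ± 1.37 CPM in spleen and marrow, and Sparc and Igfbp7 made up most of it in kidney.

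Markers of tubule and of neutrophils were highest in replicate 22, while those of platelets and of T and NK cells were, as the endothelial genes, highest in replicate 8 among the kidney libraries. The 19 tubule genes summed to 545, 213 and 1343 CPM in kidney replicates 7, 8 and 22, and to 4.30 ± 1.61 CPM in spleen and marrow, 6 of 8 in the fit being higher in kidney. Kap and Fxyd2, abundant genes of tubule epithelium, were lowest of the kidney libraries in replicate 8, at 35.9 and 123 CPM. Miox, also of that list, was not, at 14.6, 25.8 and 62.0 CPM in kidney replicates 7, 8 and 22. The tubule sum was thus lowest where the endothelial genes were highest, but Kap and Fxyd2 made up most of it. The 8 neutrophil genes summed to 1226, 4397 and 43580 CPM in kidney and to between 21571 and 29053 CPM in spleen and marrow. The 6 platelet genes summed to 13.3, 57.8 and 33.5 CPM in kidney and to 4.52 ± 1.43 in spleen and marrow, none of them being at 0 in replicate 8. The part of platelets, which share Esam and Sparc with the members, in their levels was not tested. Genes of T and NK cells summed to 8.89, 22.1 and 14.7 CPM in kidney, within or below the range of 12.1 to 28.4 CPM in spleen and marrow, and those of B cells to between 25.3 and 47.3 CPM in all 6 libraries.

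The title of the series concerns Ccr2, the chemokine receptor of monocytes, and TNFR2 of endothelium, encoded by Tnfrsf1b. Tnfrsf1b lay at 132, 77.2 and 95.4 CPM in kidney replicates 7, 8 and 22 and at 56.7, 71.0 and 70.4 CPM in spleen and marrow, a log2 fold change of 0.62 ± 0.23 that did not pass the test. Unlike the endothelial members it was lowest of the kidney libraries in replicate 8. Ccr2 stood at 1168, 764 and 836 CPM in kidney.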

How the data were processed

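Bulk RNA-seq was made from 2 ng of RNA per library with SMART-Seq v4 full-length cDNA, sheared to a mean of 150 bp, per the labels' protocols; this chemistry keeps no strand, so overlapping genes on opposite strands cannot be told apart. The authors deposited raw counts per gene symbol and, in a separate table, FPKM per gene, with 1 column per library. The submitters' processing notes list bcl2fastq 2.18, STAR 2.5, Cufflinks 2.2.1 and mm9; which program counted reads, and with which annotation, is not given in the sources used here. The 92 spike-in rows were left out of the 24047 rows. Counts were fitted with edgeR 4.0.16 (filterByExpr, TMM, glmQLFit, glmQLFTest, two-sided; R 4.3.3), kidney against spleen and marrow, with Benjamini-Hochberg adjustment over all genes tested and calls at 0.05. The script was tested on simulated counts.

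DESeq2 1.42.0, other scalings and filters, limma 3.58.1 on log2(FPKM + 1) and log2(FPKM + 0.1) for genes with FPKM of at least 0.1 in 3 libraries, and leaving out each library were the alternatives. Ratios of pooled counts, scaled by effective library size, have 95% exact conditional binomial intervals; where a group had no count, the ratio is a bound against 3 counts over the group. No test was made within the kidney, where 1 library was set against 2. Spleen and marrow replicates 24 and 26 were closer to each other (chi-square per gene 2.96) than to replicate 2 (23.7 and 25.8) but differed by more than sampling noise, and were kept as separate libraries. Members and lists were chosen with earlier results of these data known. Genes named are all members, the partners of member receptors, the title's receptors and genes among the 3 of highest mean CPM per list. In addition Pecam1, Cd34, Vwf, Bmx, Nid1, Col4a3, Rgs5, Notch3, Cspg4, Itgam, Csf1r, Cd68 and Fcgr1 were named after their values were seen. Promoter sequences are those of RefSeq, GRCm38.p6; no coordinate was converted between builds. Some items are not reported here.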

Additional observations from a re-analysis of the deposited data

How the results depend on the processing

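Genes higher in kidney numbered 832, and 462 with limma on log2(FPKM + 1), 299 with spleen and marrow replicates 24 and 26 summed, and 260 to 1569 leaving out 1 library, the most without kidney replicate 22 and the fewest without spleen and marrow replicate 26. Genes lower numbered 627, and 995 by DESeq2, 201 with the summed libraries and 179 to 1215 leaving out 1. Members called higher numbered 5, and 3 by DESeq2 (which gave no adjusted p for Sparc and Col4a1), 15 with no filter, 1 with log2(FPKM + 1), 3 with log2(FPKM + 0.1), 1 with the summed libraries and 1 to 14 leaving out 1; 0 were lower in each of these fits. Genes of the other lists called higher numbered 28, and 47 with no filter, 12 with the summed libraries and 10 to 60 leaving out 1; those lower numbered 3, 1 with the summed libraries and 1 to 10 leaving out 1. Genes at least 4-fold higher in kidney replicate 8 numbered 104, and 410 at 2-fold, 42 at 8-fold and 337 with the filter of 10 counts in a kidney library, where members went from 5 to 20. On summed FPKM the ratio of replicate 8 to the mean of 7 and 22 went from 29.9 to 36.2 for endothelial, from 2.02 to 2.45 for podocyte and from 9.05 to 7.86 for fibroblast and mural members. Filters and left-out libraries change how many genes enter the fit; otherwise the cause was not tested. No called fold change changed sign. Of the uncalled, Acta2 went from 0.91 to -0.11 without kidney replicate 8, and Ptpro from 0.04 to between -0.25 and 0.12 over all alternatives. No paired analysis was possible because the sources share no replicate number. Members with under about 10 counts per library are limited by depth, least so in the deepest libraries and most in kidney replicate 22.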

Other observations

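Haemoglobin and renin were at 0 in the count table in every library but had values in the FPKM table, so they enter no comparison. Hba-a1, an alpha globin of red cells with a near-identical neighbour, had an FPKM of 213, 1817 and 284 in kidney replicates 7, 8 and 22, and of 276, 250 and 270 in spleen and marrow replicates 2, 24 and 26. Hbb-b1, a beta globin, had 198, 1663 and 265 in kidney and 354, 290 and 288 in spleen and marrow. Both were highest in the library where the endothelial genes were highest, while the other kidney libraries lay near or below spleen and marrow. Ren1, the renin of juxtaglomerular cells, which are mural cells of the afferent arteriole, had an FPKM of 0.281, 5.25 and 0 in the kidney libraries and at most 0.157 in spleen and marrow.

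Genes on no list were also among the 30 highest in kidney replicate 8 of those at least 4-fold above both other kidney libraries, and were chosen here after their values were seen. Ly6c1, the Ly6 protein of capillary endothelium, lay at 24.5, 1008 and 46.7 CPM in kidney replicates 7, 8 and 22. Plat, the tissue plasminogen activator released by endothelium, stood at 4.03, 170 and 0 CPM. Timp3, an inhibitor of metalloproteinases bound to matrix, stood at 7.82, 168 and 9.10 CPM. Slamf7, an immune cell receptor, also passed, at 21.3, 102 and 23.5 CPM, so the genes past 4-fold were not all of vessels.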
